A study of Mus musculus with 7 samples.

Results

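The miR-30 and miR-29 families were followed in small RNA from crude heart mitochondria of Tefm knockout and control mice. The members were the 10 hairpin genes whose symbols name them, Mir30a, Mir30b, Mir30c-1, Mir30c-2, Mir30d and Mir30e for miR-30 and Mir29a, Mir29b-1, Mir29b-2 and Mir29c for miR-29, and each was found once among 49584 listed features, of which 2202 carry the type miRNA. The 4 knockout libraries came from L/L, cre mice (labelled Tefm -/-), in which cre under the muscle creatine kinase promoter had cut out a loxP-flanked exon of Tefm. The 3 control libraries came from L/L mice without cre (labelled Tefm +/+), so both groups shared the floxed alleles. That promoter is active in cardiomyocytes and skeletal muscle, and other cells of the heart keep the gene. Tefm encodes a transcription elongation factor of mitochondria. No label gives age or sex. The design text counts animals, 4 of each genotype, so each library was taken as 1 mouse, and 3 of the controls were analysed here. If libraries are not separate animals, the p-values measure only the spread between libraries.

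A microRNA is cut from a hairpin transcript by Drosha and Dicer and loaded into an Argonaute protein, where the seed near its 5′ end chooses the mRNAs to be repressed. miR-29 represses collagens, elastin and other matrix genes, is prominent in cardiac fibroblasts, and is known for its loss beside a myocardial infarct. miR-30 is abundant in the heart, where it represses connective tissue growth factor (Ctgf), and both families are therefore linked to restraint of cardiac fibrosis. Most mature microRNA of a cell lies in the cytosol, and a crude mitochondrial pellet carries cytosol, reticulum and other membranes along, so a count here does not place a microRNA inside mitochondria.

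The mature strands below are the ones for which each family is named, and they show what the members share and how little separates them. The seed, bases 2 to 8, is in capitals, and sequences are those of RefSeq for GRCm38.p6, 5′ to 3′. Of the 10 members 8 had an entry, and Mir30b and Mir30d are named only.
mmu-miR-30a-5p: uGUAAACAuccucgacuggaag
mmu-miR-30e-5p: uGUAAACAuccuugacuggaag
mmu-miR-30c-5p: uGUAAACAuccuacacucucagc
mmu-miR-29a-3p: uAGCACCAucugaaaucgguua
mmu-miR-29c-3p: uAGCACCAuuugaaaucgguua
mmu-miR-29b-3p: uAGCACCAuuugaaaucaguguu
The miR-30 strands printed share the seed GUAAACA and the miR-29 strands the seed AGCACCA. Counting from 1 at the 5′ end, miR-30e-5p differs from miR-30a-5p by C13U alone, and miR-29c-3p differs from miR-29a-3p by C10U alone. miR-30c-5p is the same 23 bases in Mir30c-1 and Mir30c-2, and miR-29b-3p the same 23 bases in Mir29b-1 and Mir29b-2, so a read of either strand belongs to 2 loci equally.

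The deposited counts are per hairpin gene and do not separate the arms. The hairpins of the 3 most abundant members are shown for that reason, with the strand named above in capitals.
Mir30a: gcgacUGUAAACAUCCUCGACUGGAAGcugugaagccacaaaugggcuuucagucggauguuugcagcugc
Mir30e: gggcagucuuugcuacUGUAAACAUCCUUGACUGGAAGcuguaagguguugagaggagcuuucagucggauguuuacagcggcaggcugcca
Mir29a: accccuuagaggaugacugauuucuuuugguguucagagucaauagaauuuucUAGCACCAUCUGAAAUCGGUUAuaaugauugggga
Mir30a (ENSMUSG00000065405.3) lies at chr1:23272269-23272339 on the plus strand, in no other annotated gene (GRCm38, GENCODE M21). Mir30e (ENSMUSG00000065409.1) lies at chr4:120772606-120772697 on the minus strand, in an intron of Nfyc, which encodes a subunit of the transcription factor NF-Y. Mir29a (ENSMUSG00000065610.1) lies at chr6:31062660-31062747 on the minus strand, in no other annotated gene.

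Library totals were 973835 to 1302619 counts in knockouts and 1560798 to 2570739 in controls, of which rows of type miRNA held 22486 to 251172 in knockouts and 49594 to 237859 in controls. The microRNA part therefore ran from 2.17 to 19.3% of the counts in knockouts and from 1.93 to 15.2% in controls, and it varied more within each group than between them. Small RNA (microRNA plus snoRNA) relative to nuclear protein-coding RNA, as a log2 ratio of counts, ran from -2.44 to 3.11 in knockouts and from -1.35 to 2.88 in controls. Knockout 4 and control 2 were the libraries poorest in small RNA, knockout 2 and control 1 the richest. Tefm itself had 0, 1, 0 and 2 counts in knockouts 1 to 4 and 0, 2 and 1 counts in controls 1 to 3, so its loss was not detectable at this depth. All 8 cardiomyocyte mRNAs checked had counts. All 6 neural microRNA genes were at 0, 2 of them lying wholly inside exons of other genes. They are numbered copies of Mir124a and Mir9, and how reads that map to several loci were counted is not known. These zeros are therefore no check of the tissue.

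Of the 10 members 6 had counts and 4 were listed at 0 in every library. The mature strands printed above are 22 or 23 bases long, so counts of members were compared without a scale for length. Mir30a was the most abundant, with 5099, 15632, 5153 and 1424 counts in knockouts 1 to 4 and 17396, 4105 and 7577 counts in controls 1 to 3. Mir30e had 1821, 5787, 1721 and 482 counts in knockouts 1 to 4 and 6397, 1951 and 3185 in controls 1 to 3. Mir29a had 967, 2404, 654 and 147 counts in knockouts 1 to 4 and 1215, 274 and 453 in controls 1 to 3. The raw counts of the 3 overlapped between groups and followed the small RNA content of the libraries. Mir30b had 345, 1252, 346 and 100 counts in knockouts 1 to 4 and 605, 177 and 309 in controls 1 to 3. Mir30c-1 was near the limit of counting, with 9, 31, 8 and 2 counts in knockouts 1 to 4 and 18, 3 and 10 in controls 1 to 3. Mir29b-1 had 4, 4, 5 and 1 counts in knockouts 1 to 4 and 1, 0 and 1 in controls 1 to 3. By mean share of microRNA counts over the 7 libraries, Mir30a ranked 3rd of all microRNA rows, Mir30e 9th, Mir29a 21st, Mir30b 31st, Mir30c-1 138th and Mir29b-1 174th.

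**Figure D1:**
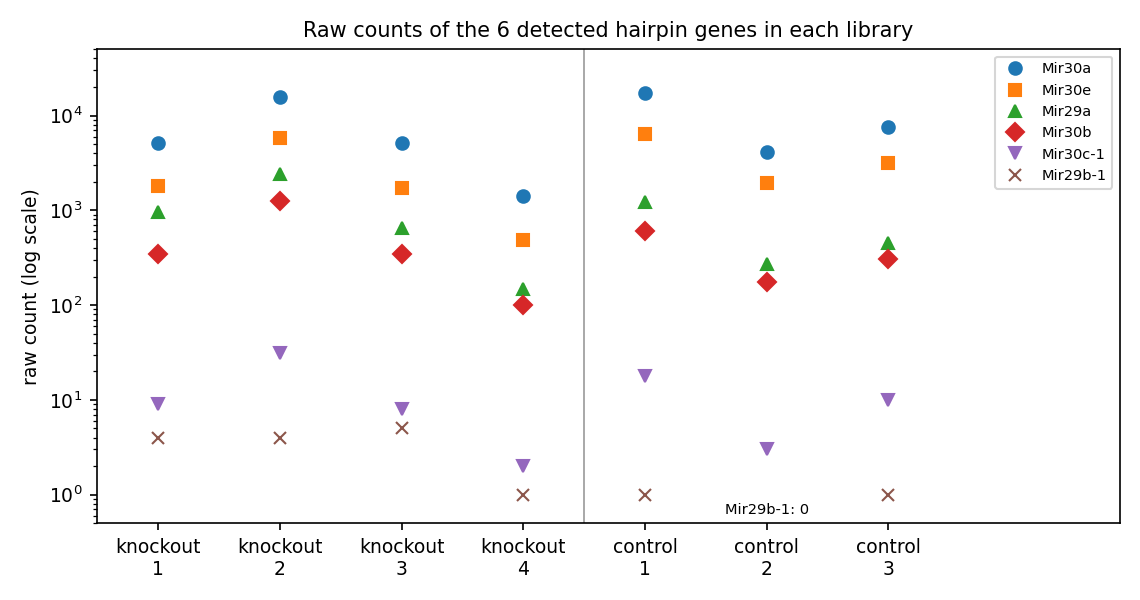
Raw counts on a log axis for the 6 members with counts, in knockouts 1 to 4 and then controls 1 to 3. The members keep much the same order and move up and down together with the microRNA content of a library; Mir29b-1 stays at 5 counts or fewer and is at 0 in control 2.

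To compare the members apart from that content, each count was divided by all microRNA counts of its library. Within the miR-30 family the abundant members took a smaller part of the microRNA counts in knockouts and Mir30b a larger one. Mir30a took 6.27, 6.22, 6.82 and 6.33% of microRNA counts in knockouts 1 to 4 and 7.31, 8.28 and 7.83% in controls 1 to 3. Every knockout lay below every control, and the means were 6.41% ± 0.276 in knockouts (SD, n = 4) and 7.81% ± 0.482 in controls (SD, n = 3). Mir30e took 2.24, 2.30, 2.28 and 2.14% in knockouts 1 to 4 and 2.69, 3.93 and 3.29% in controls 1 to 3. The knockouts were again lower without overlap, and close to each other, at 2.24% ± 0.0704 (SD, n = 4), against 3.3% ± 0.622 (SD, n = 3) in controls. Mir30b took 0.424, 0.498, 0.458 and 0.445% in knockouts 1 to 4 and 0.254, 0.357 and 0.319% in controls 1 to 3. Here every knockout lay above every control, with means of 0.456% ± 0.0312 in knockouts (SD, n = 4) and 0.310% ± 0.0519 in controls (SD, n = 3). Mir30c-1, at 0.0107% ± 0.00143 in knockouts (SD, n = 4) and 0.00798% ± 0.00217 in controls (SD, n = 3), overlapped between groups. The widest 95% Wilson interval of a library reached 0.318 percentage points to either side for Mir30a, 0.189 for Mir30e and 0.0874 for Mir30b. These intervals cover the counting error of reads alone. No molecular identifiers are described, so repeated reads of the same molecule could not be removed, and the intervals may be too narrow.

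In the miR-29 family the share was higher in knockouts. Mir29a took 1.19, 0.957, 0.866 and 0.654% of microRNA counts in knockouts 1 to 4 and 0.511, 0.552 and 0.468% in controls 1 to 3. All knockouts lay above all controls, but they spread widely, with means of 0.917% ± 0.222 in knockouts (SD, n = 4) and 0.510% ± 0.0423 in controls (SD, n = 3). The knockout nearest the controls, knockout 4, was also the library with the fewest microRNA counts. Mir29b-1 summed to 14 of 430468 microRNA counts in knockouts and 2 of 384263 in controls. The ratio of shares was 6.25, with an exact 95% counting interval of 1.44 to 56.6. This interval pools the reads of each group and leaves out the spread between mice, so it is no test of the groups.

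**Figure D2:**
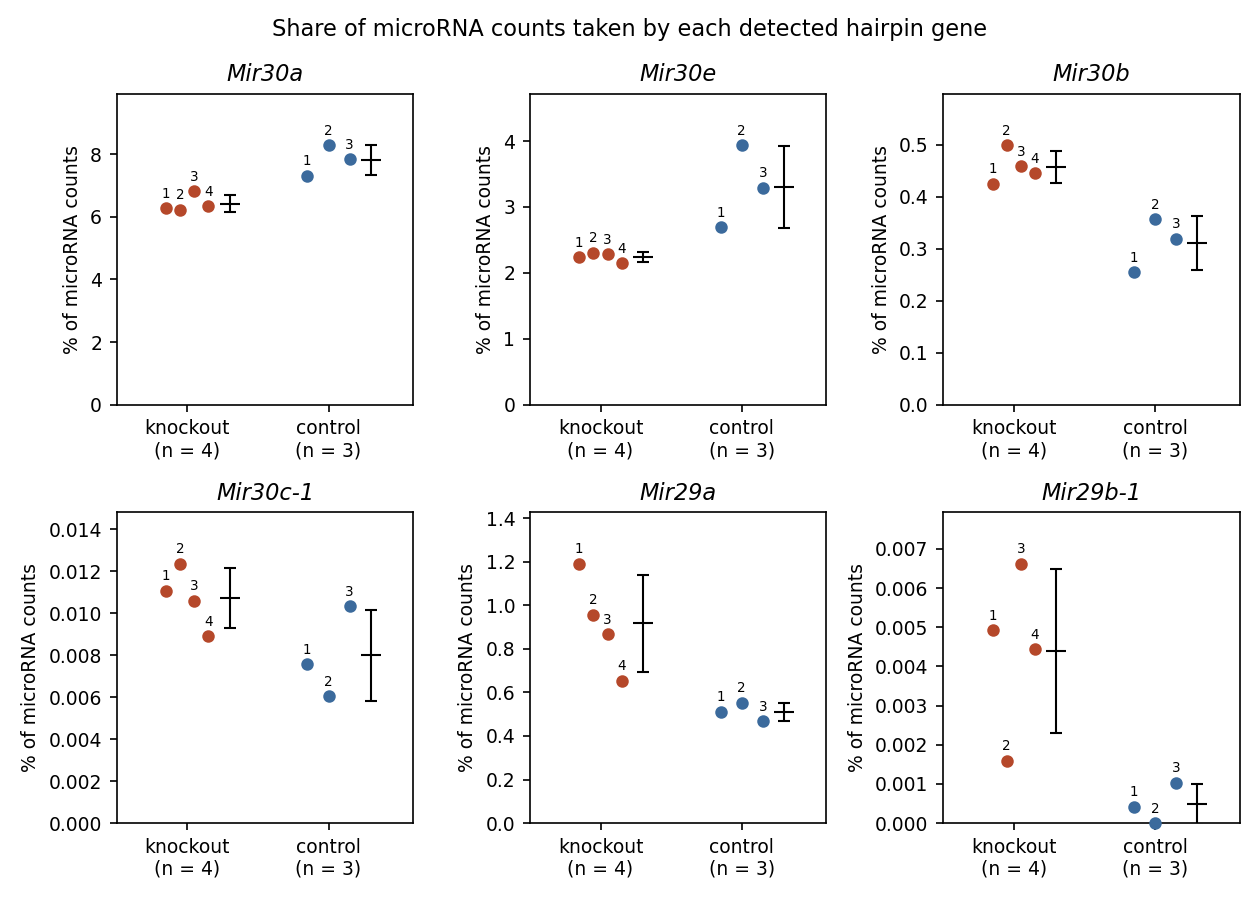
Percent of microRNA counts taken by each of the 6 members with counts, knockout libraries (red, n = 4) left of controls (blue, n = 3), with the library's replicate number above each point and the mean ± SD in black; each panel has its own axis starting at 0. Mir30a and Mir30e are lower in every knockout, Mir30b and Mir29a higher in every knockout, and Mir30c-1 overlaps.

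A test of these shares was made with edgeR's quasi-likelihood test over all microRNA rows with enough counts, with the total microRNA count as library size and two-sided p-values adjusted by Benjamini-Hochberg over the 131 rows tested. The test called 45 rows, 34.4% of those tested, with 38 higher in knockouts (29% of rows) and 7 lower (5.34% of rows). Of the 10 members 4 had enough counts to be tested and 2 were called. The share of Mir30e fell by 0.56 ± 0.17 on the log2 scale (SE; edgeR adjusted p = 0.0334). The share of Mir29a rose, with 0.85 ± 0.24 (SE; edgeR adjusted p = 0.0248), a 1.80-fold difference. Mir30a, at -0.28 ± 0.12 (edgeR adjusted p = 0.104), and Mir30b, at 0.56 ± 0.20 (edgeR adjusted p = 0.0591), did not pass. All 4 tested members lay apart between groups without overlap, as did 55 of the 131 rows, 42%. With so many rows called, 2 of 4 is close to the background, and the count says nothing particular about the members.

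Shares sum to a whole, and the rows of this test were not centred on 0. Mir143, a microRNA of smooth muscle and the most abundant row, fell. It took 21.7% ± 1.6 in knockouts (SD, n = 4) and 31.8% ± 3.61 in controls (SD, n = 3) (-0.55 ± 0.11 on the log2 scale, SE; edgeR adjusted p = 0.00672; 0.0792 with no filter on low counts). The median row had a log2 fold change of 0.43. Set against that median, Mir30e lay at -0.99, Mir30a at -0.72, Mir30b at 0.13 and Mir29a at 0.41. Mir30b lay close to the median row. With TMM scaling among microRNA rows, which centres the rows, 24 were called higher and 18 lower. Mir30e then had -0.86 (edgeR adjusted p = 0.00732), Mir30a -0.58 (adjusted p = 0.024), Mir29a 0.52 (adjusted p = 0.0473) and Mir30b 0.26 (adjusted p = 0.317). With Mir143 left out of the total, Mir30a had -0.48 (edgeR adjusted p = 0.0158) and Mir29a 0.65 (adjusted p = 0.0635).

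Both calls rested on few libraries, while the signs of all 4 members held in each of the 15 alternative settings of this test. The call of Mir30e ended with no filter on low counts (edgeR adjusted p = 0.112) and with replicate number as a block (0.0755). It also ended without knockout 1, 2 or 3 (edgeR adjusted p = 0.0558, 0.0789 and 0.0767) and without control 2 or 3 (0.149 and 0.106). The call of Mir29a ended without knockout 2 (edgeR adjusted p = 0.0663) and without control 1, 2 or 3 (0.0846, 0.0642 and 0.107). Without any library in turn, the log2 fold change stayed between -0.69 and -0.42 for Mir30e and between 0.70 and 0.98 for Mir29a. Mir30b, just short of the threshold, was called in 5 of the settings, with a minimum count of 50 (edgeR adjusted p = 0.0402), in DESeq2 (adjusted p = 0.0452), among rows with symbols starting with Mir (edgeR adjusted p = 0.0314), without Mir6240 and Mir6236, whose shares spread most between libraries (0.0458), and without knockout 4 (0.043). The choices on symbols and on Mir6240 and Mir6236 were made after seeing the data. The log2 fold change of Mir30b in these 5 lay between 0.56 and 0.60. Mir29b-1, tested only in edgeR with no filter on low counts and in DESeq2, was called in neither (adjusted p of 0.086 and 0.145).

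Summed over members, the miR-30 family took 9.12% ± 0.302 of microRNA counts in knockouts (SD, n = 4) and 11.4% ± 1.15 in controls (SD, n = 3). The knockouts ran from 8.93 to 9.57% and the controls from 10.3 to 12.6%, without overlap. The miR-29 family took 0.921% ± 0.222 in knockouts (0.658 to 1.19%; SD, n = 4) and 0.511% ± 0.0418 in controls (0.469 to 0.552%; SD, n = 3). miR-30 counts were thus 10.4 ± 2.57 times the miR-29 counts in knockouts (SD, n = 4) and 22.4 ± 2.18 times in controls (SD, n = 3), and this ratio needs no scaling between libraries. On the log2 scale it was 3.34 ± 0.36 in knockouts (2.91 to 3.76) and 4.48 ± 0.14 in controls (4.33 to 4.61), a difference of -1.14. These sums carry no test. The miR-29 sum restates Mir29a, which held most counts of its family. The miR-30 difference of -2.31 points was made up mainly of Mir30a (-1.39 points) and Mir30e (-1.06 points), while Mir30b differed by 0.146 points. Scaled to all counts in place of microRNA counts, the families overlapped between groups, with miR-30 at 0.812% ± 0.662 in knockouts and 0.786% ± 0.692 in controls and miR-29 at 0.0856% ± 0.0715 in knockouts and 0.0370% ± 0.0359 in controls (SD, n = 4 and 3).

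Within the miR-30 family the composition also differed. Mir30b made up 5.01% ± 0.354 of family counts in knockouts (SD, n = 4) and 2.70% ± 0.195 in controls (SD, n = 3), without overlap. Mir30e made up 24.6% ± 0.808 in knockouts and 28.7% ± 2.54 in controls, also without overlap, and Mir30a 70.3% ± 1.08 in knockouts and 68.5% ± 2.71 in controls, which overlapped. Mir30a counts were 14.1 ± 1.11 times those of Mir30b in knockouts and 25.5 ± 2.90 times in controls. Mir30a and Mir30e, the closest pair among the miR-30 strands printed, stood at a ratio of 2.86 ± 0.136 in knockouts and 2.40 ± 0.308 in controls, which overlapped.

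**Figure D3:**
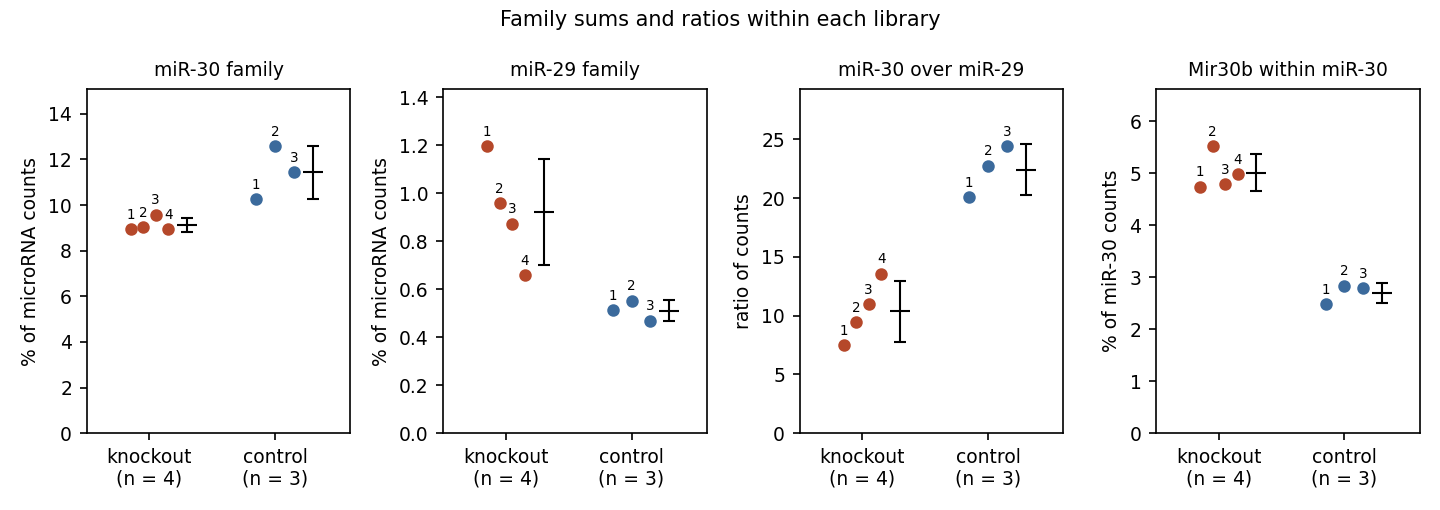
Family sums as percent of microRNA counts, the ratio of miR-30 to miR-29 counts, and Mir30b as percent of miR-30 counts, per library (red knockouts left, n = 4; blue controls right, n = 3; mean ± SD in black; replicate numbers above the points). The miR-30 share and the ratio are lower in every knockout, and the miR-29 share and the Mir30b part are higher in every knockout.

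In the test over all features no member was called. With TMM scaling, edgeR's quasi-likelihood test called 105 of 1505 features tested, 6.98%, and 0 of the 5 members that could be tested. None of the 5 reached an unadjusted p under 0.05, and with DESeq2 0 members were called as well. Mir29a was at 1092 ± 1068 CPM (counts scaled to normalised library size; SD, n = 4) in knockouts and 547 ± 594 CPM (SD, n = 3) in controls, 0.998 ± 1.29 on the log2 scale (SE; edgeR adjusted p = 0.708). Mir30a had -0.25 ± 1.21 (SE; edgeR adjusted p = 0.936), Mir30e -0.34 ± 1.18, Mir30b 0.79 ± 1.18 and Mir30c-1 0.55 ± 1.21. The CPM of all 5 overlapped between groups. The standard errors were 5 or more times those of the share test for each member tested in both, and over the 136 microRNA rows in this test 0 were called, 3 having an unadjusted p under 0.05 in edgeR. At this spread a difference of the size seen in the shares was not detectable. The signs of Mir30a and Mir30e turned positive under scaling to mitochondrially encoded counts (0.13 and 0.01), and that of Mir30a also under scaling to total counts (0.04).

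**Figure D4:**
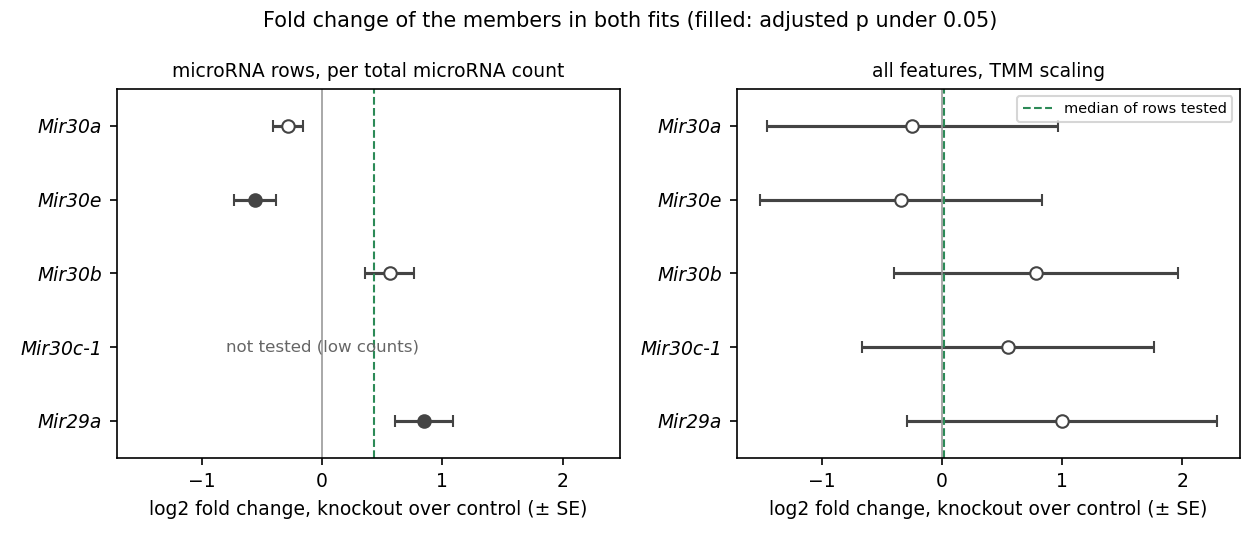
Log2 fold change, knockout over control, with its SE for 4 members in the test of microRNA shares (left, where Mir30c-1 was not tested) and 5 in the test over all features (right); filled points have an adjusted p under 0.05 and the dashed line is the median of the rows tested, 0.43 and 0.02. Error bars are narrow on the left, where Mir30e and Mir29a are filled, and all cross 0 on the right.

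In the authors' deposited table, which sets the same groups against each other, the members' log2 fold changes were -0.19 for Mir30a, -0.26 for Mir30e, 0.49 for Mir30b, 0.31 for Mir30c-1 and 0.60 for Mir29a. Their adjusted p in the authors' deposited table ran from 0.841 to 0.966, and Mir29b-1 had 1.48 with no adjusted p. No header states the direction of these fold changes, and the signs were those of the counts, knockout over control.

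The 4 members listed at 0 were Mir30c-2, Mir30d, Mir29b-2 and Mir29c, and they have an annotated position in common. Each of their hairpins lies wholly inside an exon of another gene on the same strand. Mir29b-2 (chr1:195037040-195037120) and Mir29c (chr1:195037547-195037634), both on the plus strand, lie in exons of A330023F24Rik, with 426 bases between them. Mir30c-2 (chr1:23291701-23291784, plus strand) lies in an exon of Gm27028, and Mir30d (chr15:68341208-68341289, minus strand) in one of Gm20732. None of the 6 members with counts lies wholly inside such an exon. Mir30b (chr15:68337415-68337510, minus strand) overlaps Gm26621 by 16 bases and Mir29b-1 (chr6:31063023-31063093, minus strand) overlaps Gm27019 by 2 bases. Mir30c-1 (chr4:120769534-120769622, minus strand) lies in an intron of Nfyc, as Mir30e does. On the strand opposite Mir30e the annotation holds Mir30f, which had 0 counts, and the strand setting of the counting is not known.

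The same held over all microRNA rows. Of 206 hairpins wholly inside a same-strand exon of another gene 0 had a count, and of the 1996 others 383 did, 19.2%. A partial overlap with an exon went with counts in 19 of 116 rows and a place in an intron with counts in 149 of 616. The genes around the 4 hairpins had few counts too. A330023F24Rik summed to 13 counts over the 7 libraries, Gm20732 to 1 and Gm27028 to 0. The limit that a count of 0 allows, 3 counts, is 0.00119 to 0.0133% of the microRNA counts of a library. Neighbours on the genome show the contrast: Mir30a with 56386 counts and Mir30c-2 with 0 lie 19361 bases apart, and Mir30b with 3134 counts and Mir30d with 0 lie 3697 bases apart. For the 2 sequences with copies at 2 loci, the copies not wholly inside an exon also had few counts, 81 for Mir30c-1 and 16 for Mir29b-1. Mir29a, 275 bases from Mir29b-1, had 6114. Over all rows with RefSeq sequences that do not lie wholly inside an exon, the highest count was 2112 over the 83 rows with a mature strand shared with another hairpin and 86701 over the 809 rows whose strands are found in 1 hairpin alone. A count was nonetheless present in 44.6% of the rows with a shared strand and 36.8% of the others, and over 1000 counts in 4.82% and 5.93%. No label says how reads that map to several genes or loci were counted, and its part in these zeros was not tested. The values of 0 are thus not evidence that miR-29c, miR-30d or the copies of miR-30c and miR-29b are absent, and the family sums hold only the members with counts.

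**Figure D5:**
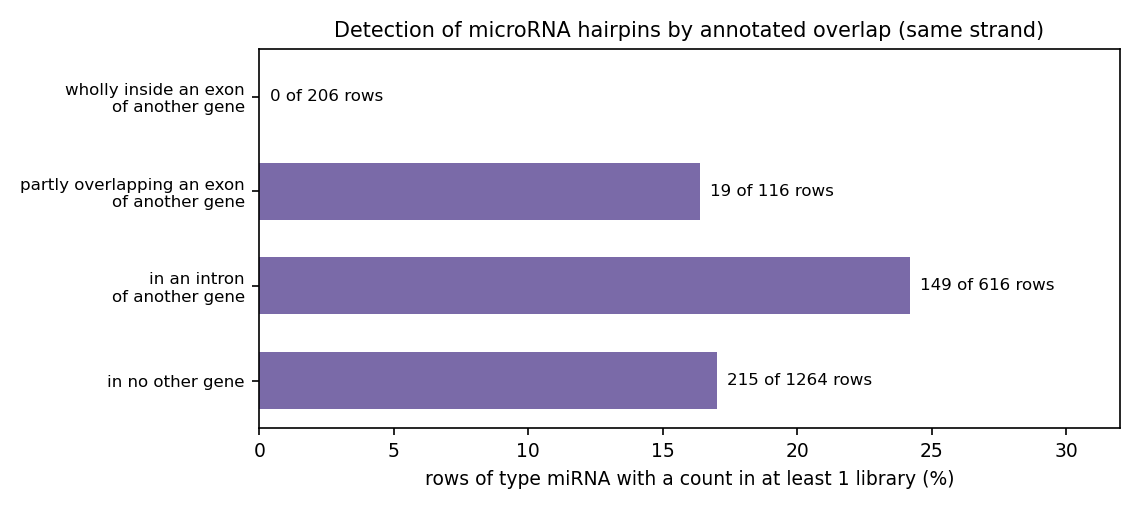
Percent of microRNA rows with a count in at least 1 library, by where the hairpin lies relative to other annotated genes on its strand. Hairpins wholly inside an exon of another gene have counts in 0 of 206 rows, and the other classes in 16.4 to 24.2% of rows.

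Across the 7 libraries, the rows whose share moved most like that of Mir30a were Mir674, Mir149 and Mir145a. Their root mean square difference from Mir30a in log2 share, each centred on its mean, was 0.109, 0.145 and 0.160, against a median of 0.535 over the microRNA rows tested, and Mir30e stood at 0.169. For Mir29a they were Mir423 (0.138), Mir23a (0.172) and Mir195a (0.199), against a median of 0.497. Mir423 (0.98 ± 0.27, edgeR adjusted p = 0.0244) and Mir23a (0.66 ± 0.23, edgeR adjusted p = 0.0478) rose in share. Both were picked for likeness to Mir29a over all 7 libraries, the group difference included. Their rise therefore follows in part from that choice and is no separate result. The call of Mir423 ended without any 1 of the controls (adjusted p = 0.0692 to 0.0846) and with Mir143 left out of the total (0.0635). That of Mir23a ended without each library but knockout 4 (edgeR adjusted p = 0.0729 to 0.16), under TMM scaling (0.133), with Mir143 left out (0.144) and with no filter on low counts (0.0792). Mir30b lay nearer to Mir29a (0.308) than to its own family member Mir30a (0.437). All these shares have the same denominator in a library.

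Among the 5 most abundant rows besides Mir143 and Mir30a, Mir27b rose in share (0.54 ± 0.17, SE; edgeR adjusted p = 0.0399), while Mir378a had -0.05 ± 0.18 and Snord43, a snoRNA typed as miRNA, had 0.43 ± 0.32 (1.03 and called without control 1, edgeR adjusted p = 0.0113). The call of Mir27b held without knockout 1 or 4 and ended without each other library (edgeR adjusted p = 0.0734 to 0.114). In edgeR it also ended under TMM scaling (0.384), with Mir143 left out (0.144) and with no filter on low counts (0.11). The same held with replicate number as a block (edgeR adjusted p = 0.0691) and in DESeq2 (adjusted p = 0.0518). The let-7 family, another abundant family with a common seed, took 5.06% ± 0.734 of microRNA counts in knockouts (SD, n = 4) and 3.45% ± 0.430 in controls (SD, n = 3). Of its 10 rows tested 5 rose in share and all 10 were positive, with a median log2 fold change of 0.69, against 29% of all rows tested called higher, 71.0% positive and a median of 0.43, while under TMM scaling among microRNA rows 2 rose and 9 were positive. Its largest rises were in Mirlet7c-1 (1.84 ± 0.28, edgeR adjusted p = 0.00157) and Mir98 (1.25 ± 0.24, adjusted p = 0.00555).

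Among mRNA fragments of listed miR-29 targets edgeR made no call in this same test, and Eln was called under 3 of its alternatives. Of 17 listed matrix, methylation and survival genes 12 were tested over all features. edgeR called 0 (1 at an unadjusted p under 0.05). Of the 12, 7 were positive, with a median log2 fold change of 0.29, against 0.02 over all features, and all 12 were positive under scaling to total, microRNA or mitochondrially encoded counts, where the median of all features was at 0.89 or above. Eln, which encodes elastin, had 2.0 ± 0.68 (SE; edgeR adjusted p = 0.115). It was called in DESeq2 (adjusted p = 0.0229) and, in edgeR, with no filter on low counts (adjusted p = 0.0184) and with the library's log2 ratio of microRNA and snoRNA to mRNA counts as a covariate (0.00425), and had an edgeR adjusted p of 0.0935 to 0.292 with a library left out. Fbn1, fibrillin of elastic fibres, had 0.79 ± 0.61, Mcl1, a survival protein, had 0.51 ± 0.48, and Lamc1, a laminin chain, had -0.78 ± 0.59. Of 7 miR-30 targets in the files 2 were tested and 1, Ctgf, rose. Ctgf fragments were at 29.02, 28.1, 69.4 and 49.8 CPM in knockouts 1 to 4 and at 4.03, 12.5 and 6.16 CPM in controls 1 to 3. Every knockout lay above every control (log2 fold change 2.48 ± 0.52, SE; edgeR adjusted p = 0.0354), on 310 counts in knockouts and 45 in controls. This call ended without any 1 of the 7 libraries, with adjusted p of 0.0507 to 0.161, and under scaling to total, microRNA or mitochondrially encoded counts (0.1, 0.97 and 0.12), while the log2 fold change without a library stayed between 2.01 and 2.89. Notch1, a receptor, had -0.98 ± 0.59 (SE; edgeR adjusted p = 0.353). A small RNA library reports fragments of these mRNAs in a mitochondrial pellet, not their level in the heart.

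Of 14 listed genes of microRNA processing and action, all had counts and 3 were tested. edgeR and DESeq2 called 0, and edgeR gave 0 an unadjusted p under 0.05. The 3 were Ago2, the Argonaute that cuts its targets, at 0.31 ± 0.48, and Tnrc6b and Tnrc6c, partners of Argonaute, at -0.42 ± 0.26 and -0.30 ± 0.40, and all that could be tested were positive under scaling to total, microRNA or mitochondrially encoded counts. Under these 3 scalings the median of all features itself lay at 0.89, 0.96 and 1.16. Tnrc6b and Tnrc6c stayed below that median. The marker values given below for these scalings have the same baseline. Markers of other cells were read beside these results. Of 11 fibroblast markers 8 had counts and 3 (Mir214, Mir199a-1 and Mir199a-2) were at 0. Their sum, scaled to total counts without TMM, ran from 108 to 1997 CPM in knockouts and from 161 to 381 CPM in controls. This sum is therefore not on the scale of the CPM given above or of the test over all features, which used TMM. Postn, the matrix protein periostin, rose (2.69 ± 0.58, SE, edgeR adjusted p = 0.0366), on 261 counts in knockouts and 27 in controls. This call ended without any 1 of the controls (edgeR adjusted p = 0.078 to 0.131), under those 3 scalings (0.0676 to 0.97) and with replicate number as a block (0.0761). It held without knockout 1 (edgeR adjusted p = 0.0255), and without knockout 2, 3 or 4 Postn was not tested. Dcn had -0.79 ± 0.43, Lum -0.73 ± 0.39 and Col1a1 0.67 ± 0.64. Of the 7 fibroblast markers tested 4 were positive, with a median log2 fold change of 0.50 (1.78 to 2.06 under those 3 scalings), and edgeR called Postn alone. Of 7 endothelial markers 5 had counts, Mir126a and Mir126b being at 0, and 4 were tested. All 4 were negative, with a median log2 fold change of -1.05 (0.02 to 0.18 under the same 3 scalings), and edgeR called 0 (2 at an unadjusted p under 0.05) and DESeq2 2, both lower in knockouts. All 8 cardiomyocyte mRNAs were tested, with a median log2 fold change of -0.99 (0.03 to 0.24 under the same 3 scalings), and edgeR called 0 (4 at an unadjusted p under 0.05) and DESeq2 2. Of 8 erythroid markers all had counts and 3 microRNA genes (Mir451a, Mir144 and Mir486) were tested, the haemoglobin genes and Alas2 having too few counts. Neither edgeR nor DESeq2 called any of the 3 (0 at an unadjusted p under 0.05 in edgeR), Mir451a taking 1.82% ± 0.889 of microRNA counts in knockouts and 1.93% ± 1.04 in controls. Of 7 white blood cell markers 5 had counts, Mir223 and Mir142hg being at 0, and Cd74 fell over all features (-2.12 ± 0.44, SE; edgeR adjusted p = 0.0342; 0.0699 to 0.102 without knockout 2 or 3 or control 2 or 3, and 0.6 to 0.97 under those scalings), as did Mir150 in share (-0.96 ± 0.20, SE; adjusted p = 0.00751). Mir142, the most abundant of that list, had positive values that did not pass (0.65 ± 0.50 in share, SE; edgeR adjusted p = 0.328), at 1.07% ± 0.738 of microRNA counts in knockouts (SD, n = 4) and 0.683% ± 0.266 in controls (SD, n = 3). Ptprc, too low to be tested, had 18 counts in knockouts and 4 in controls. Of 7 muscle microRNA genes all had counts, with Mir208b rising in share (3.10 ± 0.55, SE, edgeR adjusted p = 0.00366) and Mir499 falling (-0.68 ± 0.23, SE, edgeR adjusted p = 0.0478). The call of Mir499 ended with any library but control 1 left out (edgeR adjusted p = 0.0648 to 0.17) and with no filter on low counts (0.0792). It also ended in DESeq2 (adjusted p = 0.0644) and in edgeR with replicate number as a block. Both liver markers were at or near 0. The part of a shift in cell types in the members' shares was not tested, and in such bulk samples fewer cells of a type and less RNA per cell cannot be told apart.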

How the data were processed

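Small RNA of crude heart mitochondria had been sequenced single end on a MiSeq after an Illumina small RNA kit, per the labels' protocols. The authors deposited whole-number counts for each gene. Per the submitters' processing notes, which assign no roles, the tools were DESeq2 1.14.1 in R 3.3.2, featureCounts, bedtools, SAMtools 1.3.1, Bowtie2 and cutadapt 1.10, and the build mm10. Strand and multi-mapping settings were not given there. The deposited normalised signal, used for checks alone, equals the count over a library factor (0.496 to 2.65). The deposited comparison table holds a mean signal, a log2 fold change with its standard error, a score and a p-value, per the file headers.

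Members were matched by symbol and joined by identifier. Over all features, edgeR 4.0.16 in R 4.3.3 was run with TMM scaling and its low-count filter (minimum count 10), and over rows of type miRNA with total microRNA counts as library sizes, both with 2 groups, two-sided, at an adjusted p under 0.05. SE is the log2 fold change divided by the square root of F. Values within libraries used Python 3.11.15, numpy 2.4.6, pandas 2.3.3 and scipy 1.17.1. The fits were tested on simulated counts given the same spread for every row, which does not copy the spread between these libraries. Named genes are the 10 members, the 5 most abundant rows, the 3 rows most like Mir30a and Mir29a and, per gene list, called genes and up to 4 with the smallest adjusted p. Members, lists, tests and alternatives were chosen with earlier results of these data known, and 2 alternatives were added after the files were read. The alternatives were other scalings, filters and denominators, DESeq2 1.42.0, a composition covariate, a replicate block and each library left out. The lists were miR-29 targets, miR-30 targets, microRNA processing, let-7 and markers of muscle, cardiomyocytes, fibroblasts, endothelium, erythroid, white blood, liver and neural cells.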

Additional observations from a re-analysis of the deposited data

Results flagged for a closer look

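Among the 17 measures of the families examined in the 4 knockout libraries, 1 library stood apart by Dixon's ratio. The miR-30 family took 9.57% of microRNA counts in knockout 3, where the other knockouts lay between 8.93 and 9.04%. Its gap was 0.830 of the group's range, just past the 95% critical value for 4 samples. Chance alone puts about 1 in 20 groups past it. Knockout 3 still lay below all controls, the lowest of which was at 10.3%.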

How the results depend on the processing

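The signs of the members' shares held under all 15 alternatives of that test; those over all features did not. Genes called over all features numbered 11 under scaling to total counts, 14 under scaling to mitochondrially encoded counts, 0 under scaling to microRNA counts (edgeR; 22 at an unadjusted p under 0.05), 192 with no filter on low counts, 10 with at least 50 as the minimum count, 184 in DESeq2, 371 with the composition covariate and 0 to 75 with a library left out, against 105. No member was called over all features under any of the 17 alternatives. The median feature lay at a log2 fold change of 0.89, 0.96 or 1.16 under scaling to total, microRNA or mitochondrially encoded counts. Rows called by share numbered 24 to 49 with a library left out, against 45. Members called by share numbered 1 without a low-count filter (Mir29a), 0 to 3 with a library left out, 2 with Mir143 left out, and 3 under TMM scaling among microRNA rows, a minimum count of 50, DESeq2, symbols starting with Mir and without Mir6240 and Mir6236, against 2. Deviations from the group means correlated at 0.51, -0.78 and 0.31 between same-numbered knockouts and controls, and not every library correlated best with its own number. The highest values joined the libraries poorest in small RNA (knockout 4 and control 2, 0.86) and the richest (knockout 2 and control 1, 0.75). These correlations therefore cannot show whether same-numbered libraries were paired. The replicate block left 0 genes called over all features (338 at an unadjusted p under 0.05 by edgeR), 32 rows called by share and 1 member (Mir29a), ended the call of Mir143 (edgeR adjusted p = 0.0566), and had Mir30a at 0.30 and Mir30e at 0.0763 over all features and Ago2 at -0.16. Over all features, other signs that turned were Mir30a at 0.0415 and 0.13 under scaling to total and to mitochondrially encoded counts, Mir30e at 0.0148 under the mitochondrial scaling, and with a library left out Mir30a at -0.999 to 0.90, Mir30e at -1.14 to 0.64, Mir30b at -0.11 to 1.76 and Mir30c-1 at -0.18 to 1.48. Under scaling to total, microRNA and mitochondrially encoded counts, Notch1 had 0.19, 0.23 and 0.51, Lamc1 0.51, 0.57 and 0.81 and Tnrc6b 0.61, 0.69 and 0.86; Tnrc6c had 0.56 and 0.78 under the total and mitochondrial scalings. With a library left out Mcl1 ran from -0.0399 to 0.94, Ago2 from -0.12 to 0.49 and the share of Mir378a from -0.18 to 0.0662. The difference in the miR-30 share was -5.10 points with Mir143 left out of the total and 0.026 points as a share of all counts, against -2.31, and that in the miR-29 share 0.0486 points as a share of all counts, against 0.41. The log2 ratio of the families differed by -0.80 when members were averaged on the log2 scale with 0.5 added and by -2.64 without Mir30a and Mir29a, against -1.14. That average took in the 4 members at 0, which enter as constants and pull differences toward 0. The -0.80 is therefore not on the scale of the -1.14. The -2.64 had only Mir29b-1 with counts on the miR-29 side, 14 in knockouts and 2 in controls. The cause of these changes was not tested. Depth limits Mir30c-1 and Mir29b-1, with 81 and 16 counts in all.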

Other observations

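Other microRNAs known from heart and blood vessels were also listed at 0 while lying wholly inside an exon of another gene on their strand, among them Mir21a, Mir22, Mir126a, Mir155, Mir223, Mir125b-1 and Mir191, all chosen after their values were seen. Mir214, Mir199a-1, Mir199a-2 and Mirlet7d were at 0 without such an overlap. The muscle microRNA genes Mir1a-1, Mir1a-2, Mir133a-1 and Mir133a-2, whose main mature strands each come from 2 loci, summed to 19, 2, 22 and 6 counts over the 7 libraries, while Mir208a and Mir499, known in the adult heart, summed to 881 and 1249.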
